A study of Arabidopsis thaliana with 10 samples.

Results

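The MuDR transposons of Arabidopsis thaliana that carry no VANDAL family name and lie outside genes were followed in pollen. An element was taken when the deposited annotation placed it in the superfamily DNA/MuDR, when its family name did not begin with VANDAL, and when it shared no base with an annotated gene. The rule used no measured value and gave 3231 elements of 42 families, out of 58583 genes and transposable elements (TEs) in the tables, which is 11.9% of the 27197 TEs outside genes. Messenger RNA was sequenced in 10 pollen libraries, 2 for each of 5 groups, all of Col-0 background. Pollen of pLAT52::RTL1 and pMGH3::RTL1 plants carried a Myc-tagged RTL1 transgene and was set against WT Col-0 pollen. RTL1 is an RNase III-like enzyme that cuts the double-stranded precursors of small interfering RNAs (siRNAs). The LAT52 promoter acts in the late microspore and then in the vegetative cell, and the MGH3 promoter acts in the sperm lineage. Each construct was studied in 2 independent lines, and a difference between lines can add to the spread between libraries. The other comparison set nrpd1a-3 FTL grains against WT FTL grains. NRPD1A encodes the largest subunit of Pol IV, the RNA polymerase that starts most siRNA precursors of TEs, and nrpd1a-3 is a T-DNA insertion in it. Both kinds of grain came from the same heterozygous plants of a fluorescence tagged line (FTL), in which a pLAT52::DsRed reporter is linked to the wild-type NRPD1A copy, and a cell sorter separated the red WT FTL grains from the non-red nrpd1a-3 FTL grains. The parent plants therefore kept a working copy of NRPD1A, and the reporter and the allele cannot be told apart.

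MuDR elements are DNA transposons related to the Mutator elements of maize. A complete element encodes a transposase, which binds the terminal inverted repeats at both ends, cuts the element out and inserts it elsewhere, where 9 bases of the target are duplicated on either side. Most copies in a plant genome are fragments or short non-autonomous derivatives without a transposase, and they are normally held silent by siRNA-directed DNA methylation. The vegetative cell of pollen is known for decondensed heterochromatin and for transcripts of some TEs. Several plant gene families, among them FHY3/FAR1 and MUSTANG, descend from transposases of this type.

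The element ends and short elements on which the results turn are given first, from the RefSeq TAIR10.1 assembly, plus strand, in TAIR10 coordinates. The ends of AT5TE08535, an AT9NMU1 element of 918 bases between chr5:2347732-2348649, are shown because they match each other at 20 of 20 bases and lie between identical copies of a 9-base target. The ends of AT3TE12470, an ATMU6N1 element of 1011 bases at chr3:2970565-2971575, also match at 20 of 20 bases, but the 9 bases beside them match at only 2 positions. Capitals mark the first and the last 20 bases of the element, and the 9 outer lower-case bases are the flanking target.
AT5TE08535 left end, chr5:2347723-2347771: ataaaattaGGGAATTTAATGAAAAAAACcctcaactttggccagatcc
AT5TE08535 right end, chr5:2348610-2348658: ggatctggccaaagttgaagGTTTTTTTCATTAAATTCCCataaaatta
AT3TE12470 left end, chr3:2970556-2970604: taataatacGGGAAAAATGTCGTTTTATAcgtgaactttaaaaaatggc
AT3TE12470 right end, chr3:2971536-2971584: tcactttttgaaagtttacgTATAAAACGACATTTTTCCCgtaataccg

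The adjoining ATMU10 elements AT5TE54680 and AT5TE54685 had the lowest fold changes of the elements called in pLAT52::RTL1 pollen and are shown whole. They touch no RefSeq exon, and the nearest gene lies 1593 bases away. Capitals in the other lines mark the bases that AT3TE89570, the most abundant element, shares with the non-coding RNA gene AT3G00930, the mature miR5629 annotated inside the ATMU2 element AT5TE13805, and the mature miR5641 annotated inside the ATMU6 element AT5TE32650.
AT5TE54680, chr5:15119607-15119712: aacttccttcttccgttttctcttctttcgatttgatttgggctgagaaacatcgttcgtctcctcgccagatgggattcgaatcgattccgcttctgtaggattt
AT5TE54685, chr5:15119713-15119844: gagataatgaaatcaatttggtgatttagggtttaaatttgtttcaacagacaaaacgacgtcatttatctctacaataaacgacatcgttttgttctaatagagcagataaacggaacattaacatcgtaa
AT3TE89570 last 120 bases, chr3:21990192-21990311: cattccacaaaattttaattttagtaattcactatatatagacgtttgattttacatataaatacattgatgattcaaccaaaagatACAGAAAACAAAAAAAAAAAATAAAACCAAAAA
AT5TE13805 mature miR5629, chr5:3802933-3802954: TTAGGGTAGTTAACGGAAGTTA
AT5TE32650 around miR5641, chr5:9023198-9023358: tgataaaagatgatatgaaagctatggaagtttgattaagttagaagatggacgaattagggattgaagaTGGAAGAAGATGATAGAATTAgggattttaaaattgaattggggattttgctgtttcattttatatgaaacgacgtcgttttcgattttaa

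Most of the 3231 elements were short, AT-rich and without reads. Their median length was 256 bases (20 to 16737), their median GC content 25.8% and their median distance to the nearest gene 930 bases, against 309 bases, 35.1% and 2558 bases for the 1234 VANDAL elements outside genes. No read was counted in 2425 elements, and 231 had at least 10 reads in some library. A perfect 9-base duplication stood beside 34 elements (1.05%), against 28 VANDAL elements (2.27%) and 18 of the 22732 TEs of other superfamilies outside genes (0.0792%). Of the 44 AT9NMU1 elements 10 had such a duplication (22.7%), the highest share of any family. The elements with at least 10 reads were longer than those with no read (median 346 against 239 bases), and 29.9% against 12.3% of them touched a RefSeq exon. Of the 473 elements that touched an exon 14.6% reached 10 reads, against 5.87% of the 2758 that touched none.

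Reads over genes and TEs numbered 43490027 to 53471964 per library. The labels call the libraries of a group biological replicates without saying, for WT Col-0 and the sorted grains, whether these were separate plants or sorts, so p-values measure the spread between libraries, whatever its source. Normalized counts are reads divided by the size factor of the library, set within each experiment, and are not compared between experiments unless a fit of all 10 libraries is named. RTL1 had normalized counts of 205 and 107 in pLAT52::RTL1 pollen and of 147 and 164 in pMGH3::RTL1 pollen, against 0 in both WT Col-0 libraries, whereas NRPD1A had normalized counts of 0 to 9.65 in the sorted libraries, too few to check the insertion. Libraries of a group differed beyond sampling noise, most in sorted pollen (chi-square per degree of freedom 309 in nrpd1a-3 FTL and 317 in WT FTL, against 16.4 to 120 in the other groups). The summed level of 8 vegetative cell markers was 42583 to 46155 RPM (reads of a feature scaled to the total reads of its library) in both RTL1 constructs, against 41030 and 42272 in WT Col-0, and 6692 and 6175 in nrpd1a-3 FTL, against 13623 and 7885 in WT FTL. That of 8 leaf markers was 4.17 to 5.93 RPM in both RTL1 constructs, against 1.15 and 0.676 in WT Col-0, and 16.9 and 0.823 in nrpd1a-3 FTL, against 0.418 and 0.329 in WT FTL. Every sperm and vegetative marker had reads in every library. The vegetative sum rested largely on VGD1, which held 1415303 of 1838420 marker reads in WT Col-0 replicate 1 and 1577960 of 2124795 in replicate 2. In pLAT52::RTL1 against WT Col-0, VGD1 was lower (log2 -0.65) and PPME1 higher (2.29), so the near-level sum hides opposite changes.

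The elements together held 1166 and 894 RPM in pLAT52::RTL1 and 541 and 553 in pMGH3::RTL1, against 482 and 510 in WT Col-0. They held 1922 and 2837 RPM in nrpd1a-3 FTL, against 1263 and 1899 in WT FTL. A single element, AT3TE89570 of the ATDNA2T9C family (chr3:21989990-21990311, 322 bases), carried 23.3% to 64.7% of these reads in every library. Without it the totals were 412 and 433 in pLAT52::RTL1 and 356 and 396 in pMGH3::RTL1, against 356 and 392 in WT Col-0, and 719 and 1198 in nrpd1a-3 FTL, against 521 and 802 in WT FTL. The 10 most abundant elements of each library held 82.3% to 88.3% of its element reads.

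**Figure D1:**
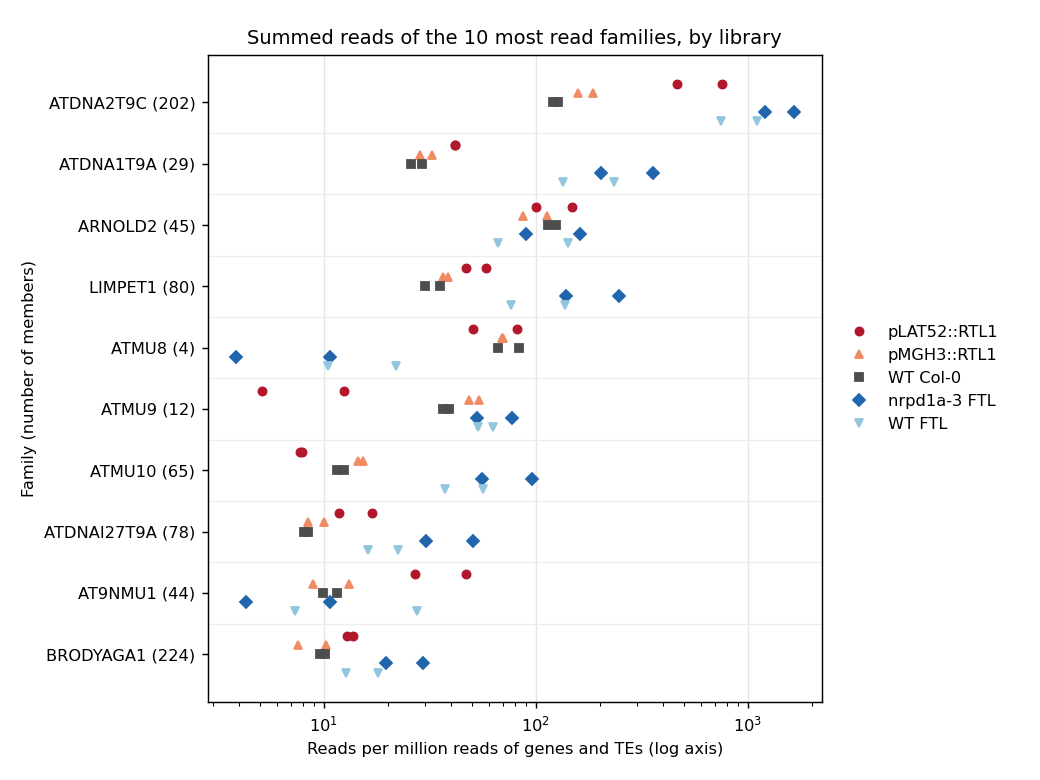
Summed RPM (log axis) of the 10 families with the most reads, a point for each library. AT3TE89570 makes ATDNA2T9C the highest family, and ATMU9 is lowest in the pLAT52::RTL1 libraries, at 12.4 and 5.14, against 38.8 and 36.5 in WT Col-0.

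In 5 of the 10 families with the most reads 1 element accounted for nearly the whole family. AT3TE89570 held 99.4% of the ATDNA2T9C reads, AT4TE33010 95.5% of those of ATDNA1T9A, AT4TE30230 98% of those of ARNOLD2, AT1TE68335 97.9% of those of ATMU8 and AT4TE13150 99.6% of those of ATMU9. In the other families, LIMPET1, ATMU10, ATDNAI27T9A, AT9NMU1 and BRODYAGA1, the leading element held 28% to 38.8%. LIMPET1 had 33 of 80 elements at 10 reads or more, led by AT5TE67210 at 36.1%. AT4TE30230 lies wholly in exons of the RefSeq genes AT4G11543 and AT4G11547, AT1TE68335 in the pseudogene AT1G55410, and AT4TE33010 shares 19.8% of its bases with the non-coding RNA AT4G12917. As normalized counts, ATDNA1T9A stood at 1621 and 1667 in pLAT52::RTL1 and 1595 and 1756 in pMGH3::RTL1, against 1426 and 1612 in WT Col-0, so that pLAT52::RTL1 lay just above WT Col-0 and pMGH3::RTL1 overlapped it. ARNOLD2 stood at 3903 and 5998 in pLAT52::RTL1, against 6260 and 6855 in WT Col-0, but at 100 and 149 RPM, against 114 and 124, so that the groups overlapped on that scale. ATMU9 stood at 483 and 206, against 2138 and 2024 in WT Col-0, and did not overlap on either scale.

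In pLAT52::RTL1 pollen 7 elements fell and 9 rose relative to WT Col-0 among the 79 elements that could be tested (adjusted p under 0.05, DESeq2, over all genes and TEs). These are 8.86% and 11.4% of the tested elements, beside 7.77% and 6.53% of the 11002 genes and TEs tested, so neither share stood far from the background. The falling elements belonged to 6 families at 5 loci. In bulk pollen, fewer cells of a type and less RNA per cell cannot be told apart. Of 8 vegetative markers 4 were lower and 1 higher in the same comparison, and their part in these calls was not tested. The falling elements AT5TE54680 (ATMU10), AT5TE54685 (ATMU10), AT4TE13145 (BRODYAGA1A), AT4TE13150 (ATMU9), AT3TE12470 (ATMU6N1) and AT5TE13805 (ATMU2) were also lower in a direct test against pMGH3::RTL1 pollen.

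AT5TE54680 had normalized counts of 13.7 and 3.12 in pLAT52::RTL1 and 135 and 146 in pMGH3::RTL1, against 127 and 126 in WT Col-0. AT5TE54685, which begins at the next base, had 7.59 and 2.34 in pLAT52::RTL1 and 73.4 and 87.4 in pMGH3::RTL1, against 74.8 and 79.2 in WT Col-0. Both pLAT52::RTL1 libraries lay far below every other library of the experiment. The junction between them held 7.59 and 2.34 in pLAT52::RTL1 and 67.9 and 75.8 in pMGH3::RTL1, against 69.7 and 72.8 in WT Col-0. Reads thus crossed the edge between AT5TE54680 and AT5TE54685, so the pair are not independent observations. The log2 fold change against WT Col-0 was -3.91 ± 0.50 (SE, adjusted p = 3.05e-13) for AT5TE54680 and -3.95 ± 0.61 (adjusted p = 3.07e-09) for AT5TE54685. Another ATMU10 element at this place, AT5TE54675 (226 bases, chosen after its values were seen), was counted at 34 and 1 reads in pLAT52::RTL1, against 140 and 161 in WT Col-0, and did not pass the test (adjusted p = 0.0576). In the 1076 bases to the right of AT5TE54685 the order was the other way round, with normalized counts of 184 and 121 in pLAT52::RTL1 and 74.5 and 80.1 in pMGH3::RTL1, against 73.5 and 77.0 in WT Col-0.

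**Figure D2:**
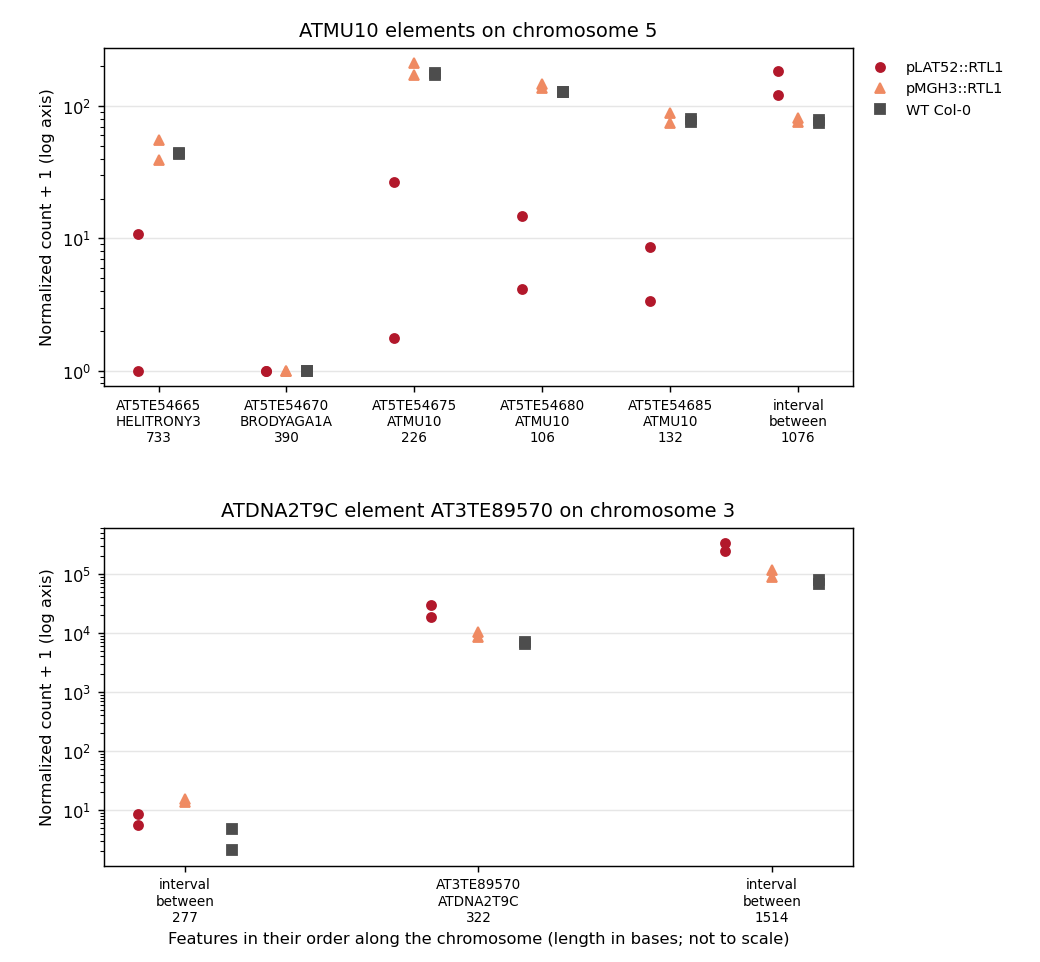
Normalized counts + 1 (log axis) of neighbouring features at the ATMU10 elements of chromosome 5 and at AT3TE89570, a point for each library of the RTL1 experiment, with the length of each feature in bases below its name. The ATMU10 elements are lowest in pLAT52::RTL1 while the interval of 1076 bases beside them is highest there, and the 1514 bases to the right of AT3TE89570 move with it.

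AT4TE13150, the ATMU9 element at chr4:2802626-2803778, had 480 and 202 normalized counts in pLAT52::RTL1 and 3029 and 2625 in pMGH3::RTL1, against 2135 and 2022 in WT Col-0 (log2 -2.61 ± 0.49, adjusted p = 2.15e-06). The BRODYAGA1A piece AT4TE13145 of 43 bases on its left edge had 9.1 and 3.89 in pLAT52::RTL1 and 90.9 and 120 in pMGH3::RTL1, against 97.6 and 54.6 in WT Col-0 (log2 -3.54 ± 0.58, adjusted p = 3.47e-08). Reads crossed the edge between them, so the pair are not independent observations. EHD2, the gene 672 bases to the right, was not called (log2 0.60, adjusted p = 0.23).

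AT3TE12470, the ATMU6N1 element with matching ends, had 25.8 and 9.35 normalized counts in pLAT52::RTL1 and 141 and 110 in pMGH3::RTL1, against 106 and 128 in WT Col-0 (log2 -2.74 ± 0.46, adjusted p = 1.17e-07). Its inverted repeats run for 48 bases at 81.2% identity, and the 193 bases to its left and the junction on its right held normalized counts of only 0 to 2.53 in the RTL1 experiment. AT5TE13805, the ATMU2 element that holds miR5629, had 73.6 and 35.0 in pLAT52::RTL1 and 247 and 335 in pMGH3::RTL1, against 336 and 277 in WT Col-0 (log2 -2.49 ± 0.34, adjusted p = 1.98e-11). It lies within an exon that RefSeq gives to AT5G11790 (NDL2), whose own counts in the table did not pass the test (log2 -0.13, adjusted p = 0.708). The 201 bases to its right were lower with it, at 28.8 and 13.2 normalized counts in pLAT52::RTL1 and 78.9 and 139 in pMGH3::RTL1, against 113 and 98.4 in WT Col-0. The seventh falling element, AT1TE68335 of ATMU8, had 1946 and 3245 in pLAT52::RTL1 and 3828 and 3766 in pMGH3::RTL1, against 3629 and 4597 in WT Col-0 (log2 -0.66 ± 0.23, adjusted p = 0.0291), and this call was lost under 8 of 14 other settings.

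**Figure D3:**
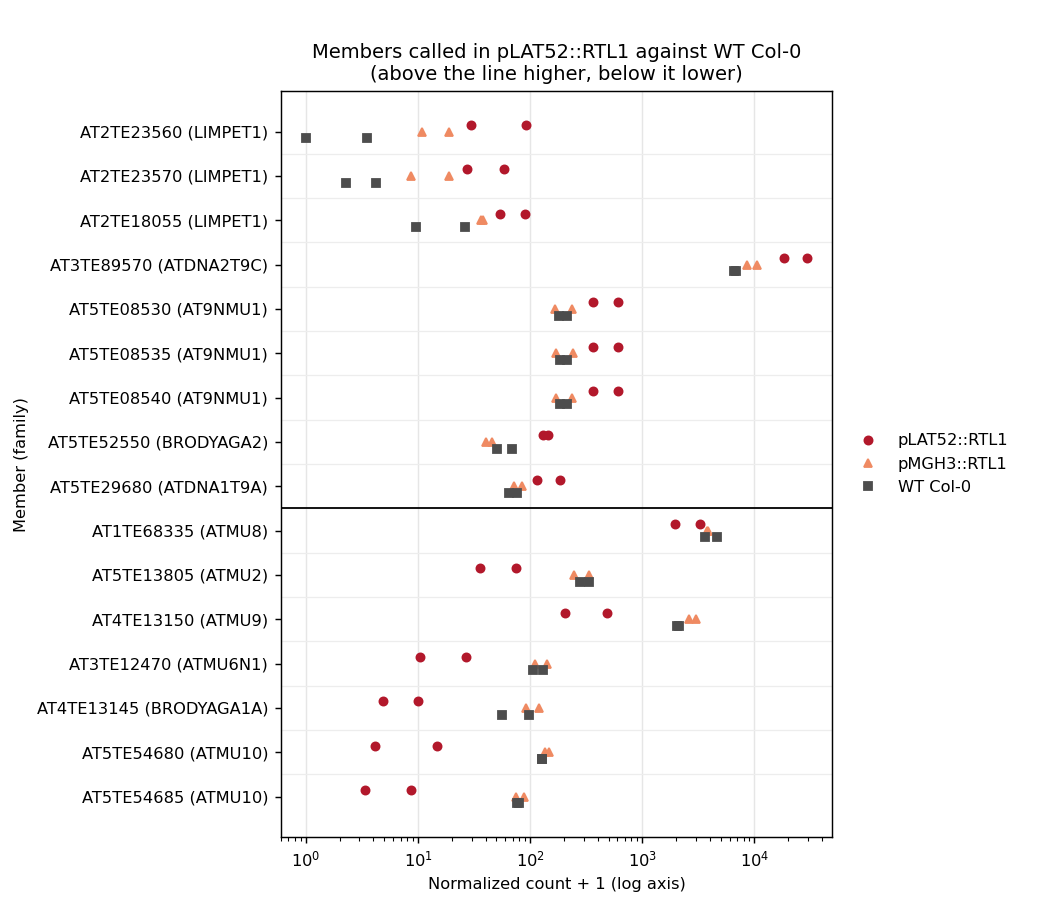
Normalized counts + 1 (log axis) of the 16 elements called in pLAT52::RTL1 against WT Col-0, a point for each library. The 9 elements above the line were higher and the 7 below it lower in pLAT52::RTL1. For AT3TE89570 the pMGH3::RTL1 libraries, at 10444 and 8507, lie between those of pLAT52::RTL1 and WT Col-0.

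The 9 rising elements lay at 6 loci. For 8 of them an adjoining intergenic interval held at least 95% as many reads as the element itself, summed over all 10 libraries. Of the 79 elements tested in this comparison this was so for 29, and over all elements with at least 10 reads for 110 of 231 (47.6%). Among the 7 falling elements it was so for 1, AT1TE68335. The sorted libraries weigh in this sum. In pLAT52::RTL1 alone the interval to the right of AT5TE54685 held 243 and 156 reads, against 10 and 3 in the element. In WT Col-0 it held 58 and 72, against 59 and 74. AT3TE89570 had 29373 and 18527 normalized counts in pLAT52::RTL1 and 10444 and 8507 in pMGH3::RTL1, against 6902 and 6581 in WT Col-0 (log2 1.83 ± 0.21, adjusted p = 1.27e-15). The 1514 bases to its right, up to RBL13, held 330008 and 245892 in pLAT52::RTL1 and 114285 and 86924 in pMGH3::RTL1, against 68219 and 80256 in WT Col-0. AT3G00930 lies in that interval and shares the last 33 bases of the element, whereas the 277 bases to the left held at most 14.2 normalized counts in any of these libraries.

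The AT9NMU1 elements AT5TE08530, AT5TE08535 and AT5TE08540 (26, 918 and 48 bases) adjoin each other and rose together. AT5TE08535 had 608 and 362 normalized counts in pLAT52::RTL1 and 168 and 239 in pMGH3::RTL1, against 182 and 214 in WT Col-0 (log2 1.29 ± 0.30, adjusted p = 3.12e-04). Its 801 and 465 reads in pLAT52::RTL1 compare with 801 and 463 reads in its left neighbour and 800 and 463 in its right one, and the junctions between them held about as many, although the reads were 100 bases long and the element 918. The genes on both sides rose as well, AT5G07410 by 1.61 (adjusted p = 9.77e-10) and AT5G07420 by 1.86 (adjusted p = 4.89e-13) on the log2 scale.

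Among the other rising elements, AT5TE52550 (BRODYAGA2) had 144 and 130 normalized counts in pLAT52::RTL1 and 44.9 and 39.0 in pMGH3::RTL1, against 67.2 and 49.2 in WT Col-0 (log2 1.24 ± 0.39, adjusted p = 0.0148). AT5TE29680, an ATDNA1T9A element of 3555 bases with a perfect 9-base duplication, had 184 and 115 in pLAT52::RTL1 and 71.2 and 84.3 in pMGH3::RTL1, against 74.8 and 64.2 in WT Col-0 (log2 1.11 ± 0.38, adjusted p = 0.0292), and was called under 6 of 14 other settings. The intervals to the right of both were higher in the same libraries.

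LIMPET1 gave 3 rising elements on chromosome 2. AT2TE18055, of which 89.1% lies in the long non-coding RNA AT2G10921, had 88.8 and 53.0 normalized counts in pLAT52::RTL1 and 37.3 and 35.8 in pMGH3::RTL1, against 25.3 and 8.56 in WT Col-0 (log2 2.08 ± 0.60, adjusted p = 0.00622). The reads of AT2TE23560 numbered 120 and 37 in pLAT52::RTL1 and 9 and 17 in pMGH3::RTL1, against 2 and 0 in WT Col-0 (adjusted p = 9.73e-05). The reads of AT2TE23570 numbered 75 and 34 in pLAT52::RTL1 and 7 and 17 in pMGH3::RTL1, against 1 and 3 in WT Col-0 (adjusted p = 9.43e-04). Both touch exons of the RefSeq gene AT2G13845. With so few reads in WT Col-0 no fold change is given for this pair. AT2TE18055, AT2TE23560 and AT2TE23570 did not pass the direct test between the constructs (adjusted p = 0.348, 0.0503 and 0.183). In the same comparison 3 of 4 tested leaf markers were higher, and their part in these calls was not tested.

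Leaving out pLAT52::RTL1 replicate 1 left 1 rising element, and leaving out WT Col-0 replicate 2 left 5, while the falling count stayed between 6 and 10 over all such fits. Scaling by total reads gave 20 rising and 6 falling elements, and it moved the median of all features from -0.01 to 0.49 on the log2 scale.

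In pMGH3::RTL1 pollen none of 669 tested elements was called against WT Col-0 in either direction, where 0.0217% of all 27651 features were called. At an unadjusted p under 0.05, DESeq2 gave 5 higher elements and 0 lower ones, and edgeR gave 8 and 0 with no call. The highest element, AT3TE89570, had a log2 fold change of 0.49 ± 0.21 (adjusted p = 1.0). When the constructs were tested against each other, 5 of 68 tested elements were higher and 6 lower in pLAT52::RTL1, 7.35% and 8.82%, beside 5.53% and 7.36% of all features. The higher ones were AT3TE89570 (log2 1.34), AT5TE52550 (1.71) and the AT9NMU1 trio (1.25 to 1.26), all matched by an adjoining interval. The lower ones ranged between -2.42 for AT5TE13805 and -4.06 for AT5TE54680, and none of them was so matched over all 10 libraries. This comparison shares the pLAT52::RTL1 libraries with the one above, and 11 of the 16 elements called there were called here.

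In nrpd1a-3 FTL grains no single element passed the test against WT FTL grains, although most of the elements read in WT FTL had a positive fold change. DESeq2 called none of 567 tested elements, where 0.008% of all 24995 tested features were called, and edgeR called none. At an unadjusted p under 0.05, DESeq2 gave 43 elements higher and 1 lower, edgeR gave 41 and 1, and scaling by total reads gave 13 and 3. The median log2 fold change of the tested elements was 0.80, beside 0.16 for all features. With scaling by total reads it was 0.45, beside -0.09. Leaving out nrpd1a-3 FTL replicate 2 gave a median of 0.35, beside 0.0 for all features. Without nrpd1a-3 FTL replicate 1 the median was 0.73, beside -0.44 for all features. It was 0.75, beside 0.27, without WT FTL replicate 1, and 1.58, beside 0.35, without WT FTL replicate 2. The sets of tested elements differed between these fits. With the replicate number as a block, 13 elements were higher and 1 lower of 17 tested, beside 344 and 63 of all 2930 features tested. The 2 kinds of grain were sorted at the same time, but the sources do not say that a number marks a shared sort.

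The direction was read among the 113 elements with at least 10 reads in each WT FTL library, so that none entered through nrpd1a-3 FTL alone. Of these 94 (83.2%) had a positive fold change, beside 43.5% of all features chosen alike, and the median log2 fold change was 1.06, beside -0.12. Both nrpd1a-3 FTL libraries lay above both WT FTL libraries for 54 (47.8%), where this held for 12.6% of all such features, and below them for 9 (7.96%), where it held for 18.7%. Some of the 203 elements with at least 10 reads in any sorted library entered only through the group where they were high. Of these 203, 92 (45.3%) lay above and 12 (5.91%) below, beside 15.7% and 14.7% of all features. VANDAL elements outside genes, filtered alike, shared this order, with 45.7% above and 5.32% below. Other TEs outside genes gave 26.0% and 9.97%. As RPM, 40.9% of the elements, 36.2% of VANDAL elements, 21.1% of other TEs and 10.8% of all features lay above. The shares of VANDAL elements and other TEs were counted under this filter only, so the comparison between classes carries its limit.

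**Figure D4:**
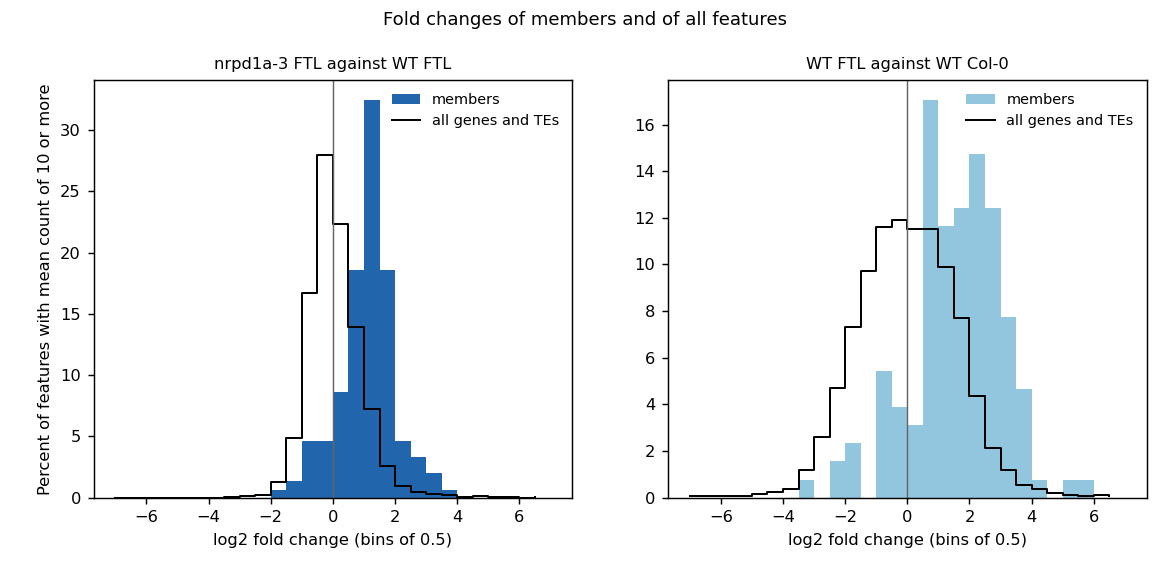
Distribution of log2 fold changes, in percent of features with a mean normalized count of 10 or more, for the elements (bars) and for all genes and TEs (line). Most of the 151 elements in nrpd1a-3 FTL against WT FTL and of the 129 in WT FTL against WT Col-0 lie right of 0, but an element can pass this filter through the group where it is high.

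Abundant elements differed in the size of this shift. The log2 fold change was 0.59 in AT4TE30230, 0.51 in AT4TE13150, 1.18 in AT5TE67210 and 1.11 in AT1TE41030. In AT4TE30230 the mean normalized counts were 7323 ± 4392 (SD) in nrpd1a-3 FTL, against 4872 ± 2890 in WT FTL. AT3TE89570 had 59526 and 110437 normalized counts in nrpd1a-3 FTL, against 32510 and 54381 in WT FTL (log2 0.97 ± 0.48). AT4TE33010 had 9716 and 23317 in nrpd1a-3 FTL, against 5710 and 11295 in WT FTL (log2 0.96 ± 0.53), and AT3TE33980 (LIMPET1, 1875 bases) had 902 and 2549, against 451 and 998 (log2 1.25 ± 0.58). In AT3TE89570, AT4TE33010 and AT3TE33980 both nrpd1a-3 FTL libraries lay above the WT FTL library of the same number. However, nrpd1a-3 FTL replicate 1 lay below WT FTL replicate 2 in AT4TE33010 and AT3TE33980. AT5TE32650, the ATMU6 element that holds miR5641, did not overlap, with 292 and 669 normalized counts in nrpd1a-3 FTL, against 108 and 199 in WT FTL (log2 1.65 ± 0.58, adjusted p = 0.99). AT5TE85500 (ATDNAI27T9A) did not overlap either, with 273 and 671 in nrpd1a-3 FTL, against 132 and 192 in WT FTL (log2 1.54 ± 0.58, adjusted p = 0.99). The opposite order was found in AT1TE68335, with 462 and 205 in nrpd1a-3 FTL, against 924 and 477 in WT FTL (log2 -1.07 ± 0.56). None of 8 vegetative and none of 8 leaf markers was called in this comparison. Their log2 fold changes were -1.10 to 0.48, with ROP1 the positive one, and 4.08 to 7.60, with the leaf reads mostly in nrpd1a-3 FTL replicate 1, and the part of either list in the shift was not tested.

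The pLAT52::RTL1 and nrpd1a-3 effects were compared in a single fit of all 10 libraries. Of 131 tested elements 9 (6.87%) had a lower effect in pLAT52::RTL1 and 0 a higher one, where 2.16% and 0.574% of all 11852 features did. edgeR called 0, and its unadjusted p was under 0.05 for 13 higher and 30 lower elements, against 8 and 33 with DESeq2. Of 66 tested VANDAL elements outside genes DESeq2 called 3 lower (4.55%) and 0 higher. The 9 elements with a lower effect lay at 6 loci. The difference was -5.24 for AT5TE54680 (adjusted p = 2.01e-07), -5.30 for AT5TE54685 (adjusted p = 4.93e-07), -4.23 for AT3TE12470 (adjusted p = 1.8e-04) and -3.24 for AT4TE13150 (adjusted p = 1.17e-04) on the log2 scale. AT5TE54680 was lower in pLAT52::RTL1, but had 879 and 2157 normalized counts in nrpd1a-3 FTL, against 486 and 839 in WT FTL. AT5TE32650 had 36.4 and 11.7 in pLAT52::RTL1, against 67.2 and 63.1 in WT Col-0, which was not called alone (log2 -1.43 ± 0.56, adjusted p = 0.0681), while its difference from the nrpd1a-3 effect was (-3.21, adjusted p = 0.00889). The BOMZH2 piece AT5TE32655 inside it followed (-2.84, adjusted p = 0.0471). AT4TE13145 (-3.72, adjusted p = 0.00797) and AT5TE13805 (-2.57, adjusted p = 0.00614) were low in pLAT52::RTL1 and overlapped between the sorted groups. The remaining element, AT4TE12575 (ATMU6, 74 bases), had 0 and 0 reads in pLAT52::RTL1, against 5 and 5 in WT Col-0, and 35 and 47 in nrpd1a-3 FTL, against 19 and 35 in WT FTL (adjusted p = 0.0444). The call of AT4TE12575 was kept under 3 of 17 other settings and under no fit that left out a library, and that of AT5TE32655 under 5 of 17. Without nrpd1a-3 FTL replicate 1 the count was 27, without WT FTL replicate 2 it was 15, and without nrpd1a-3 FTL replicate 2 it was 4.

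**Figure D5:**
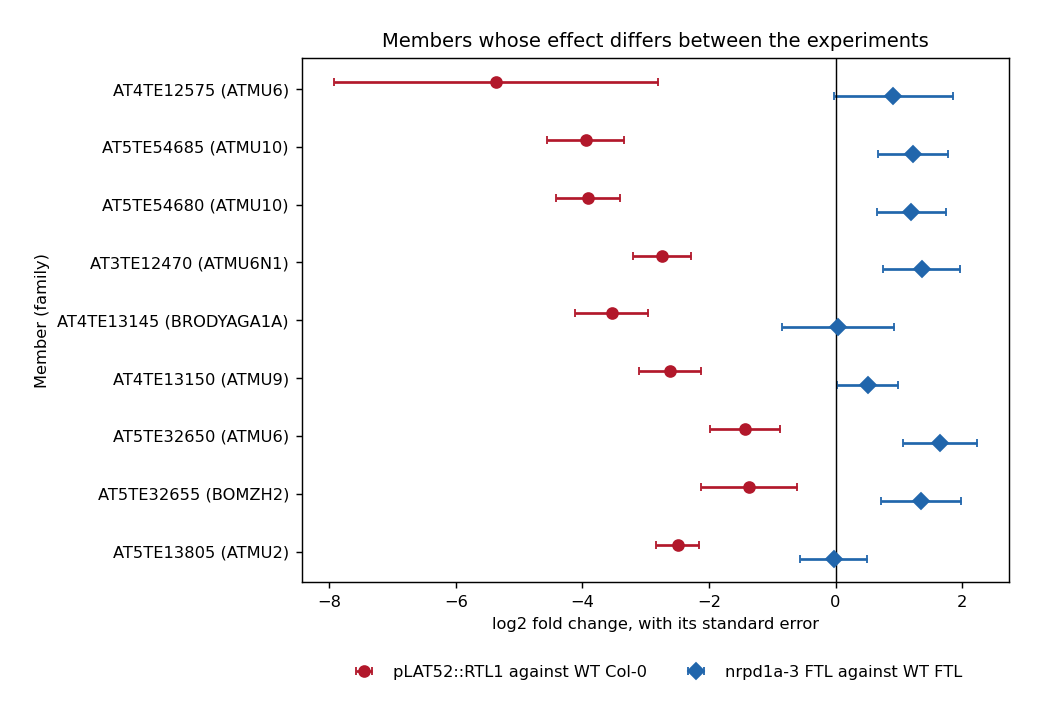
Log2 fold changes with their standard errors of the 9 elements whose effects differed between pLAT52::RTL1 against WT Col-0 and nrpd1a-3 FTL against WT FTL. All 9 lie below 0 for pLAT52::RTL1, and between -0.03 and 1.65 for nrpd1a-3 FTL.

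The largest number of calls separated the wild-type pollen of the 2 experiments. In WT FTL grains 58 of 240 tested elements were higher than in WT Col-0 pollen (24.2%, beside 14.9% of all 16312 features) and 5 were lower (2.08%, beside 15.4%). The median log2 fold change of the tested elements was 1.38, and that of all features 0.00. Of the tested VANDAL elements outside genes 16.0% were higher and 2.83% lower (median 1.05). For tested TEs of other superfamilies outside genes these shares were 18.3% and 7.24% (median 0.81). The upward shift was therefore not particular to the elements followed here. Sorting, the DsRed reporter, the nrpd1a-3 heterozygous parent plants, the experiment and the sample preparation cannot be told apart in this comparison. Of 8 vegetative markers 3 were lower in WT FTL (VGD1, AHA8 and PRK2) and 1, ROP1, was higher. Of 8 sperm markers 2 were lower (GEX2 and GEX3) and 0 higher. The part of either list in these calls was not tested. Among the 64 elements with at least 10 reads in each WT Col-0 library, 52 (81.2%) had a positive fold change, beside 44.2% of all features chosen alike. The 58 higher elements lay at 43 loci in 20 families, with 11 LIMPET1, 6 ATDNAI27T9A, 5 ATDNAI27T9B and 5 BRODYAGA1 elements, and 15 of them were matched by an adjoining interval. For 14 of them neither WT Col-0 library had more than 3 reads. Without WT FTL replicate 2 there were 25, without WT Col-0 replicate 2 there were 30 and without WT Col-0 replicate 1 there were 34.

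AT3TE89570 had a log2 fold change of 3.07 ± 0.42 in WT FTL against WT Col-0 (adjusted p = 1.47e-11), AT4TE33010 one of 3.0 ± 0.46 (adjusted p = 3.61e-09) and AT5TE54685 one of 3.41 ± 0.53 (adjusted p = 4.93e-09). AT2TE61310, a BRODYAGA1A element of 284 bases, had 24 and 34 reads in WT FTL, against 1 and 0 in WT Col-0 (adjusted p = 0.00165), and the gene AT2G32788 at 34 bases from it was higher by 5.05 on the log2 scale (adjusted p = 7.78e-07). The BRODYAGA1 element AT1TE62945 had 120 and 211 reads in WT FTL, against 17 and 13 in WT Col-0 (log2 3.48 ± 0.62, adjusted p = 5.96e-07). It lies between AT1G51240 and AT1G51250, which were higher by 2.95 and 2.58. AT4TE23545, a BRODYAGA1A element of 1084 bases, had 10 and 15 reads in WT FTL, against 0 and 0 in WT Col-0, at least 4.21-fold higher when each WT Col-0 library is set to a floor of 3 reads, a bound that covers counting error only. Against the same floor, AT3TE67725 (ARNOLDY2) was at least 5.58-fold higher, and AT1TE05280 (ATREP16) at least 3.73-fold, also with no read in WT Col-0. AT3TE67720 (ARNOLDY1) had 1 and 19 reads in WT FTL, against 0 and 0 in WT Col-0, so that its call rested on 1 library, and it was called under 3 of 11 other settings. All 4 calls were lost without WT FTL replicate 2. AT1TE05280 is an element of 1391 bases with a perfect 9-base duplication beside it.

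The LIMPET1 elements AT2TE24595, AT2TE24600 and AT2TE24605, which adjoin each other and touch the RefSeq gene AT2G14265, rose by 1.58, 1.89 and 1.61 on the log2 scale. The 5 lower elements were AT1TE57185 (BRODYAGA1A), with 0 and 0 reads in WT FTL, against 8 and 21 in WT Col-0, and AT1TE68335 (log2 -2.20), AT2TE18045 (-2.04), AT3TE87500 (-1.93) and AT2TE41505 (-1.78). Leaving out any 1 library left 1 to 3 lower elements (1 without WT Col-0 replicate 2), and AT2TE18045 and AT2TE41505 were each called under 6 of 13 other settings, against 13 of 13 for AT1TE68335. AT3TE87500 overlaps AT3G58050 as RefSeq draws it, and AT2TE18045 adjoins AT2G10920, which were lower by 1.82 and 1.98 on the log2 scale.

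ATDNAI27T9A shows how far copies can be told apart. The 6 higher elements of this family lie on chromosomes 3 and 5 and are 90.0% to 99.4% identical in pairs. A window of 60 bases is shown for AT3TE09505, for AT3TE24910, which matches it at 53 bases, and for AT5TE85500, which is read on the minus strand and matches at 60 of 60, as do AT5TE32810, AT5TE61705 and AT5TE67215. Capitals mark the bases that differ from AT3TE09505.
AT3TE09505, chr3:2260176-2260235: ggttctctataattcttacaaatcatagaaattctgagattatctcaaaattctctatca
AT3TE24910, chr3:5929924-5929983: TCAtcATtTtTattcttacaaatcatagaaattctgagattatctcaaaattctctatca
AT5TE85500, chr5:23775042-23775101: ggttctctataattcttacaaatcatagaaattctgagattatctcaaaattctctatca

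AT3TE09505 had 84 and 96 reads in WT FTL, against 12 and 10 in WT Col-0. AT5TE61705 had 78 and 86 in WT FTL, against 12 and 8 in WT Col-0, and AT5TE32810 had 72 and 74, against 10 and 8. AT3TE24910 had 80 and 86, against 10 and 10, so the counts of these copies on different chromosomes were close to each other in every library. Their log2 fold changes, with AT5TE67215, lay between 3.0 and 3.05. Only AT5TE85500 stood apart, with 159 and 200 reads in WT FTL, against 18 and 8 in WT Col-0 (log2 3.76 ± 0.61, adjusted p = 2.71e-08). How reads with several positions were counted is not stated, and these copies cannot be taken as separate observations.

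Genes that descend from MuDR-type transposases were mostly not called in the RTL1 and nrpd1a-3 comparisons. FHY3, a transcription factor of far-red light signalling, was the only one called among 18 of 22 such genes tested in pLAT52::RTL1 against WT Col-0, with normalized counts of 120 and 140 in pLAT52::RTL1 and 224 and 230 in pMGH3::RTL1, against 274 and 261 in WT Col-0 (log2 -1.04 ± 0.27, adjusted p = 0.00141). Over all features 7.77% were lower in that comparison. It was also lower against pMGH3::RTL1 (log2 -0.80, adjusted p = 0.0254). None of 22 was called in pMGH3::RTL1 and none of 21 in nrpd1a-3 FTL. In WT FTL against WT Col-0 6 of 19 tested were lower and 0 higher, beside 15.4% and 14.9% of all features, namely FRS8 (-2.15), FRS7 (-2.15), FRS5 (-2.67), MUG7 (-1.67), MUG4 (-1.98) and FRS9, which had 0 reads in both WT FTL libraries. DAYSLEEPER, which descends from a hAT transposase instead, was not called in any comparison.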

How the data were processed

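Messenger RNA of pollen was sequenced by the authors as paired reads of 100 bases. The authors aligned the reads with STAR to TAIR10, per the submitters' processing notes, and deposited raw counts per gene, TE and intergenic interval. The counting tool, the use of strand and the treatment of reads with several positions are not given in the sources used here. The members and lists were chosen with earlier results of these data known. Genes and TEs were fitted together with DESeq2 1.42.0 in R 4.3.3 (Wald test, median-of-ratios size factors, independent filtering, Benjamini-Hochberg adjustment, threshold 0.05). The RTL1 experiment was fitted over its 6 libraries and the FTL experiment over its 4, and WT FTL against WT Col-0, like the difference of effects, over all 10. An element counts as tested when it has an adjusted p. edgeR 4.0.16, other scalings and filters, a replicate block and leaving out each library were alternatives. Named elements were those called, or the 15 highest and 15 lowest where over 30 were called, plus the 10 most abundant elements and the 10 families with the most reads. Terminal repeats, duplications and sequences were read with Biopython 1.88 from RefSeq TAIR10.1, whose chromosome lengths hold every coordinate of the tables. Directions over many elements were read among those with at least 10 reads in each library of the control group, a filter chosen after the data were seen. The fits were tested on simulated data.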

Additional observations from a re-analysis of the deposited data

Results flagged for a closer look

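The log2 effect of pLAT52::RTL1 minus that of nrpd1a-3 FTL differed from 0 for 9 elements by the test of the difference itself. It was -5.24 for AT5TE54680, -5.30 for AT5TE54685, -4.23 for AT3TE12470, -3.72 for AT4TE13145, -3.24 for AT4TE13150, -3.21 for AT5TE32650, -2.84 for AT5TE32655 and -2.57 for AT5TE13805. For AT4TE12575 it was -6.38, a fitted value that is no bound, since both pLAT52::RTL1 libraries had 0 reads, against 5 and 5 in WT Col-0. The 9 elements lay at 6 loci, and edgeR called 0 of them. The calls of AT4TE12575 and AT5TE32655 were kept under 3 and 5 of 17 other settings.

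Intergenic intervals, which entered no fit, held more reads in pLAT52::RTL1, against WT Col-0, beside called elements, with no test. The log2 ratio of mean normalized counts was 2.25 to the left of AT2TE23560, 1.96 to the right of AT3TE89570 and 1.54 to the left of AT5TE08530. It was 1.28 to the right of AT5TE08540, 1.06 to the right of AT5TE29680, 0.97 to the right of AT5TE52550 and 1.02 to the right of AT5TE54685, an element that was itself lower.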

How the results depend on the processing

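No named value changed sign while called. Single values were fold changes of called elements and log2 ratios of family totals. Of their comparisons with an alternative 1145 stayed the same, 250 lost the call and 13 moved. A called element stayed the same when it was still called. A family total, which had no test, stayed the same within the spread between libraries, and only family totals could move. Of the comparisons of counts 154 stayed within 1.5 times and 40 moved. Where a count moved, the cause was not tested. Scaling by total reads gave 20 elements higher and 6 lower in pLAT52::RTL1 against WT Col-0, and 18 and 6 against pMGH3::RTL1. It gave 5 and 5 in the difference of effects. The medians of all features were then 0.49, 0.49 and 0.91 (log2), in place of -0.01, -0.01 and 0.02. TMM factors gave 3 higher in the difference, counts divided by 2 gave 1, and edgeR gave 0 lower. A fit of all 10 libraries gave 2 higher in pLAT52::RTL1 against WT Col-0 and 2 against pMGH3::RTL1. A fit of only the groups compared gave 1 higher in pMGH3::RTL1. Elements at least 500 bases from a gene gave 5 higher in pLAT52::RTL1 against WT Col-0, 2 against pMGH3::RTL1, and 37 higher and 2 lower in WT FTL against WT Col-0. The lower count in WT FTL was 3 without independent filtering, with counts divided by 2, and with only the groups compared. Without elements matched by an adjoining interval, an alternative chosen after seeing the data, 1 was higher in pLAT52::RTL1 against WT Col-0, 0 against pMGH3::RTL1, and 1 lower in WT FTL.

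Leaving out each library in turn gave 1 to 10 elements higher and 6 to 10 lower in pLAT52::RTL1 against WT Col-0, 2 to 7 and 6 to 9 against pMGH3::RTL1, 0 to 3 and 4 to 27 in the difference, and 25 to 59 and 1 to 3 in WT FTL against WT Col-0, with 0 in pMGH3::RTL1 and nrpd1a-3 FTL. With the replicate number as a block, 13 elements were higher and 1 lower in nrpd1a-3 FTL, of 17 tested. Deviations of same-numbered nrpd1a-3 FTL and WT FTL libraries correlated at 0.52 over genes, but there were only 2 pairs and the sources tie the numbers to no shared sort. Few elements could be read: 2425 had no read in any library, and 231 reached 10 reads in one. Why the others had no or few reads was not tested.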
